A study of Mus musculus with 4 samples.

Results

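Among 17559 genes measured by RNA-seq in mouse CD8+ T cells, 109 were near-silent in both control libraries and reached a higher level in both libraries of cells exposed to NaBu. These genes are described here. For 5 small RNAs among them, the level rests on at most 2 counts in a NaBu library. The genes were chosen by their FPKM, the deposited level of a transcript scaled to its length and to the number of mapped fragments, which had to be 1 or more in both NaBu libraries and under 0.2 in both controls. Of 121 genes within these limits, 12 were left out by symbol, among them *Fxyd1*, *Pvrl2*, *Tox2* and genes whose symbols begin with Kif, Kcn, Cacn, Syt or Gm or end in Rik. Because these values of all 4 libraries chose the genes, their NaBu and control levels are a description and carry no test.

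The cells were C57BL/6 CD8+ T cells from tissue labelled LN, and every library came from OT-I mice, whose T cells bear a transgenic receptor for a peptide of ovalbumin. All were purified by negative magnetic selection to above 95%, stimulated through CD3 and CD28 with plate-bound antibodies (1 µg/ml against CD3, 2 µg/ml against CD28) for 2 d, and moved to a new plate for 2 d more. IL-2 was present throughout at 10 ng/ml. NaBu libraries came from cells then exposed to 1 mM NaBu for 12 h (2 libraries), and control libraries from cells given the control treatment (2 libraries). Nothing in the labels says whether the libraries of a group came from separate cultures or animals. All libraries held the transcripts that define the cells, with *Cd3e* at an FPKM of 297.5 and 293.2 in the NaBu libraries and 308.0 and 310.6 in the controls, and *Cd8a* at 93.9 and 97.0 in the NaBu libraries and 118.4 and 115.9 in the controls.

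NaBu stands for sodium butyrate, the salt of a short-chain fatty acid made by gut bacteria and a known inhibitor of histone deacetylases. Deacetylases work in corepressor complexes, such as those of REST and of the NuRD complex, that help to keep genes of other tissues silent. A differentiated T cell therefore holds many genes of neurons, epithelia and other tissues that are present in its genome but hardly transcribed.

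The 4 promoter windows below belong to *Dact3*, *Mxra8*, *Chit1* and *Gchfr*, which had the highest mean NaBu FPKM among genes with an entry in the RefSeq promoter table and a match to a searched motif; 74 of the 109 have an entry. They are shown to set the start regions of strong genes side by side. Each runs 5′ to 3′ from 250 bases before to 50 after the annotated start (RefSeq, GRCm38.p6, the assembly also called mm10). Capitals mark matches on either strand to the GC box (GGGCGG), the CCAAT box (CCAAT), the TATA box (TATAAA), the core of the cAMP response element (TGACGT) and the cores of the left and right arm of the RE1 site of REST (CAGCACC and GGACAG).
*Dact3*, chr7:16875067-16875366, plus strand: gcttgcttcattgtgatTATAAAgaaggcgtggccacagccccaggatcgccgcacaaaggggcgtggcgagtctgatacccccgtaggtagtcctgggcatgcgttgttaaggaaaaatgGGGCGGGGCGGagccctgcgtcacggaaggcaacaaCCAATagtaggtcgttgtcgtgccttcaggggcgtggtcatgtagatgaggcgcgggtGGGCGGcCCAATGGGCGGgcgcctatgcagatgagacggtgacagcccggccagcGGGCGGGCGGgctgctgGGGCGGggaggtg
*Mxra8*, chr4:155839430-155839729, plus strand: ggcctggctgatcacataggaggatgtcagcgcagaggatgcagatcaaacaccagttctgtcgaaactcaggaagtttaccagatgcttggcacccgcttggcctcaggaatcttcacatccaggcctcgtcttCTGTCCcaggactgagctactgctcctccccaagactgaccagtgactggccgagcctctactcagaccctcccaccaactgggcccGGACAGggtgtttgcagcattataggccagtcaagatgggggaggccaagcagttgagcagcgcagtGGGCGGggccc
*Chit1*, chr1:134110992-134111291, plus strand: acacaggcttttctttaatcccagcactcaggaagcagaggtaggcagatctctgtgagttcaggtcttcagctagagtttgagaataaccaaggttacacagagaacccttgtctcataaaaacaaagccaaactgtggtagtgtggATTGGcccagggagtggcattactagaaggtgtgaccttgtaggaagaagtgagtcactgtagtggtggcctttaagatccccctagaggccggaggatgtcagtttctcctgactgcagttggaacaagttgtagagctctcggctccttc
*Gchfr*, chr2:119167538-119167837, plus strand: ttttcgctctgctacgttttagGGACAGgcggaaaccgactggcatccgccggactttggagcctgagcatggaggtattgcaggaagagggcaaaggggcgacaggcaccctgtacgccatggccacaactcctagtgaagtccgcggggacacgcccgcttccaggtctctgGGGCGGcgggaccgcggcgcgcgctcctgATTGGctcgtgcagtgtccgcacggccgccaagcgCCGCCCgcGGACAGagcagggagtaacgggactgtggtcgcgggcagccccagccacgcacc

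The *Dact3* window held 7 GC box matches, some of them overlapping, with 2 CCAAT matches and 1 TATA match. Its GC content was 64.0%, with 25 CG pairs. The *Gchfr* window was of the same kind, with 67% GC, 31 CG pairs, 2 GC boxes, 1 inverted CCAAT box and 2 matches to the right RE1 arm. *Mxra8* had 58.7% GC, 8 CG pairs, 1 GC box and 2 matches to the right RE1 arm. *Chit1* stood apart with 48.3% GC, 2 CG pairs and 1 inverted CCAAT box as its only match. Over the 27025 genes of the promoter table, with the most upstream window of each, the median GC content was 52.7% with a median of 7 CG pairs. Of these windows, 35.9% held a GC box, 38% a CCAAT box, 14.2% a TATA box, 7.59% the cAMP core, 7.10% the left RE1 arm, 22.1% the right RE1 arm and 0.0333% both arms spaced by NN. These matches are letters in a window, not sites of binding. A comparison of promoter composition over all 109 genes is void, since 67.9% of them have an entry.

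Levels in NaBu were low. The lowest, median and highest FPKM were 1.00, 2.08 and 5.33 in NaBu 1 and 1.00, 1.93 and 4.84 in NaBu 2, against 0, 0.07 and 0.19 in control 1 and 0, 0.07 and 0.19 in control 2. Both NaBu libraries were at 2 or more for 48 genes and at 4 or more for 4 genes. Together the genes took 14144 and 13489 of the expected counts in the NaBu libraries (0.0712% and 0.0679%), against 659 and 607 in the controls (0.00324% and 0.00295%). In total the libraries held 19859649 and 19857701 expected counts with NaBu and 20344399 and 20548571 in controls. In bulk RNA, transcription in more cells and more RNA per cell cannot be told apart, so a level of 1 to 5 could come from few cells or from many.

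**Figure D1:**
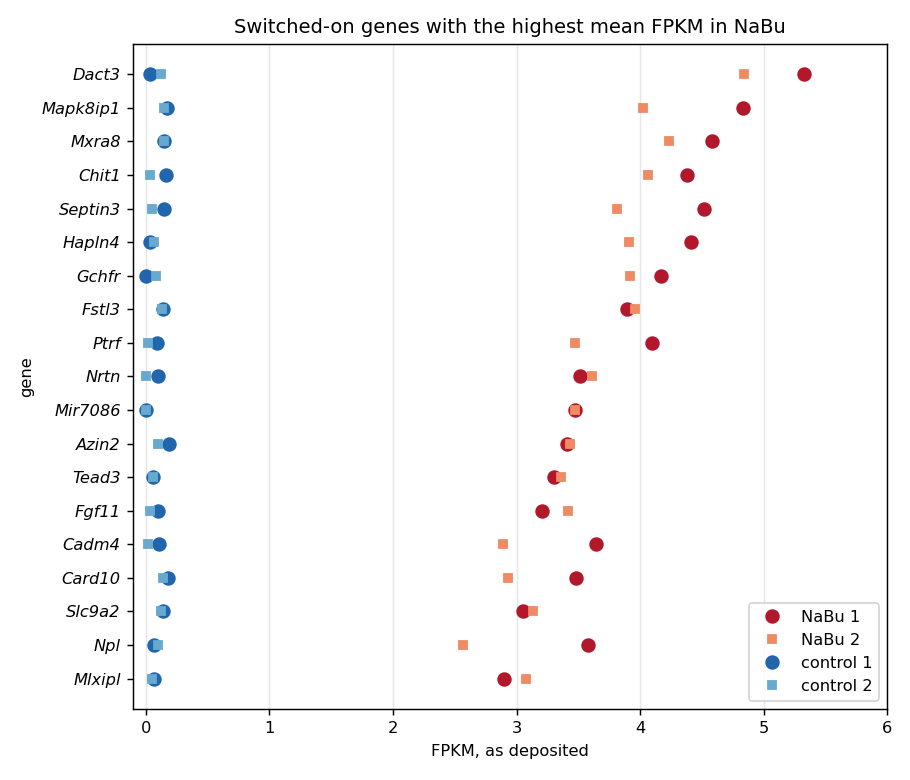
FPKM (linear axis) of 19 of the 20 genes with the highest mean FPKM in NaBu, one row per gene, with circles and squares for the first and second library of each group. All NaBu points lie at 2.57 or more and all control points at 0.19 or less, which the choice of the genes fixed in kind. The points of *Mir7086* rest on 2 counts in each NaBu library.

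The strongest gene was *Dact3* (gene 629378, mm10 chromosome 7, 16875317 to 16887301), an antagonist of Wnt signalling of the Dapper family. It had an FPKM of 5.33 and 4.84 in NaBu and 0.03 and 0.12 in controls, from 574 counts over the NaBu libraries and 9 over the controls. On counts scaled to the normalised library sizes it was 61.4-fold higher in NaBu (exact binomial 95% interval 32.1 to 135). Its edgeR log2 fold change of 5.90 became 5.28 without control 1 and 7.01 without control 2. Intervals here cover counting error only. Its relatives *Dact1* and *Dact2* stayed near-silent, with *Dact1* at 0.05 and 0.07 in NaBu and 0.04 and 0.03 in controls. Also of developmental signalling, *Gli1* (chromosome 10, 127329882 to 127341579), the transcriptional effector and target of Hedgehog signalling, had 2.02 and 1.97 in NaBu and 0.11 and 0.13 in controls. *Gli1* overlaps *Arhgap9*, which fell to an FPKM of 53.9 and 54.3 in NaBu, against 108.0 and 97.9 in controls (edgeR quasi-likelihood test over all genes, log2 fold change -0.97), so the overlapping genes moved in opposite directions. *Ankrd6*, whose protein Diversin links Wnt signals to planar polarity, averaged 1.21 in NaBu.

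Of 9 genes of kinase cascades, *Mapk8ip1* (chromosome 2, 92383671 to 92401346), the scaffold JIP1 of the JNK pathway, was the highest, with 4.83 and 4.02 in NaBu and 0.17 and 0.15 in controls. *Mapk13*, the p38 delta kinase, had 2.60 and 3.14 in NaBu and 0.11 and 0.03 in controls. *Card10*, a CARD scaffold that carries receptor signals to NF-kappaB outside the lymphoid lineage, had 3.48 and 2.93 in NaBu and 0.18 and 0.14 in controls. These 3 genes rest on at least 72 counts in every NaBu library. The others were *Ripk4*, a kinase of keratinocyte differentiation, with a mean of 2.18 in NaBu, the atypical MAP kinase gene *Mapk15* with 1.83, *Irak3*, a brake on Toll-like receptor signalling, with 1.33, the S6 kinase gene *Rps6ka2* with 1.27, the phosphatase gene *Dusp18* with 1.11 and *Wnk2* with 1.03. *Wnk2* was among the largest relative changes, with 307 counts over the NaBu libraries and 2 over the controls (148-fold, interval 40.6 to 1226). Both control counts lay in control 1, and its edgeR log2 fold change of 7.04 became 6.11 without control 2.

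Genes of ligand families were among the stronger ones. *Fstl3*, an extracellular antagonist of activin and myostatin, had 3.89 and 3.96 in NaBu and 0.14 and 0.13 in controls. *Nrtn*, the GDNF-family ligand neurturin, had 3.51 and 3.61 in NaBu and 0.10 and 0 in controls. *Fgf11*, an FGF homologous factor that is kept inside the cell, had 3.21 and 3.42 in NaBu and 0.10 and 0.03 in controls, and *C1qtnf1* averaged 1.98 in NaBu.

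Of 13 membrane ligands and receptors, *Gipr*, the receptor of the incretin GIP, was the highest, with 2.51 and 3.10 in NaBu and 0.19 and 0.16 in controls. *Cd24a*, a glycan-rich surface protein of immature lymphocytes and epithelia, had 2.68 and 2.65 in NaBu and 0.11 and 0.16 in controls. *Lrp1*, a large endocytic receptor, has the longest transcript of the set (14907 bases) and the most counts, 505 and 580 in NaBu and 35 and 43 in controls. Its NaBu FPKM was 1.68 and 1.93, so many counts did not mean a high level per length. *Pdgfrb*, the receptor of platelet-derived growth factor B on mesenchymal cells, had 1.51 and 1.20 in NaBu and 0.05 and 0.10 in controls, while *Pdgfra* had 0.01 and 0.01 in NaBu and 0 and 0 in controls. Others were *Ptpru* (mean 2.32 in NaBu), the semaphorin gene *Sema4c* (2.02), *Igsf3* (2.01), *Tfr2*, a sensor of iron-loaded transferrin (1.39), the progestin receptor gene *Paqr5* (1.24) and the hyaluronan receptor gene *Layn* (1.18).

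The ephrin A ligands *Efna1* and *Efna3*, which signal to Eph receptors on neighbouring cells, are the remaining members of that group and lie side by side. *Efna3* (chromosome 3, 89313899 to 89322939) had 1.33 and 1.37 in NaBu and 0 counts in both controls. It was at least 16.5-fold higher in NaBu by the exact 95% interval, and the ratio was 20.9 with the control group set to a floor of 3 counts. *Efna1* (chromosome 3, 89271730 to 89280951) had 1.14 and 1.33 in NaBu and 0.07 and 0.07 in controls. The next gene beyond *Efna3*, *Efna4* (89333393 to 89338028), stayed outside the limits with 0.51 and 0.54 in NaBu and 0.19 and 0.09 in controls. *Efna2*, on chromosome 10, had 1.59 and 1.33 in NaBu and 0.25 and 0.20 in controls, and *Efna5*, on chromosome 17, had 0.04 and 0.02 in NaBu and 0 and 0.02 in controls. The ephrin gene with the lowest NaBu level was thus one that lies outside the chromosome 3 cluster. *Efna2* lies outside it too, and was about as high as *Efna1* and *Efna3* and above *Efna4*. A second close pair was *Nxph4*, encoding a neurexophilin, and *Lrp1*, 3598 bases apart on chromosome 10, and *Card10* and *Cdc42ep1* lie 39575 bases apart on chromosome 15.

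Genes mainly known from neurons made up 13 of the 109, as many as the membrane ligands and receptors. Over all roles, 24 genes have neurons, brain or retina among their usual sites, 11 epithelia, 4 testis and 3 myeloid cells, and 56 were given no tissue. These assignments were made from general knowledge once the genes were known, so they describe the set and are not an enrichment. *Septin3* (listed under a date-like symbol in the deposited table), a septin of nerve terminals, had 4.52 and 3.81 in NaBu and 0.15 and 0.05 in controls. *Hapln4*, a hyaluronan link protein of perineuronal nets, had 4.41 and 3.91 in NaBu and 0.03 and 0.07 in controls. *Mapt*, encoding the axonal microtubule protein tau, had 2.33 and 2.21 in NaBu and 0.02 and 0.02 in controls, from 461 and 4 counts. *Hap1*, the huntingtin-associated protein, showed the largest relative change of all genes with a control count, 155-fold (interval 42.7 to 1289), with 2.28 and 2.15 in NaBu and 0.02 and 0.01 in controls. The rest were the striatal phosphatase inhibitor gene *Ppp1r1b* (mean 2.57 in NaBu), the photoreceptor gene *Guca1a* (2.26), *Nxph4* (2.16), *Lin7b* (1.78), *Rasgrf1* (1.62), *Fbxl16* (1.53), the microtubule gene *Map7d2* (1.43), *Dpysl5*, a collapsin response mediator (1.32), and *Igsf9* (1.24).

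Of 23 analysed genes of a neuron marker list, 17 were near-silent in controls, of which 1, *Mapt*, reached 1 in both NaBu libraries and 11 were still under 0.2 in both. Of the 11 genes of the list that edgeR tested, 7 were called higher and 1 lower (median log2 fold change 1.56), *Slc17a7*, a vesicular glutamate transporter, with 9.49 and 9.66 in NaBu and 0.86 and 0.69 in controls being among the higher ones. *Snap25*, a synaptic fusion protein, had 0.01 and 0.04 in NaBu and 0.03 and 0.07 in controls. *Syp*, encoding synaptophysin, fell just short, with 1.23 and 0.95 in NaBu and 0.18 and 0.12 in controls. Over 12 lists of marker genes of other cell types, 98 of 162 analysed genes were near-silent in controls. Of these, 4 (4.08%) reached 1 in both NaBu libraries, among them *Mapt*, *Pdgfrb* and the epithelial gene *Dsp*, and 73 were still under 0.2. For comparison, 121 (2.55%) of all 4742 genes near-silent in both controls reached 1 in both NaBu libraries and 3659 (77.2%) stayed under 0.2.

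Junction and polarity genes numbered 6. *Cadm4*, a nectin-like adhesion molecule, had 3.64 and 2.89 in NaBu and 0.11 and 0.02 in controls, whereas its relatives *Cadm2* and *Cadm3* stayed at 0.02 or less in all 4 libraries. *Cadm1* had 0.13 and 0.10 in NaBu, from 11 and 8 counts, and 0 counts in both controls. *Cldn10*, a tight junction claudin, averaged 2.57 in NaBu, and *Pard3*, a polarity scaffold, averaged 2.24. *Dsp*, the desmosomal plaque protein desmoplakin, had 1.46 and 1.24 in NaBu and 0.07 and 0.06 in controls. *Epb41l4b* averaged 1.08. Of 13 tested genes of the epithelium list 12 were higher and 0 lower in NaBu by edgeR (median log2 fold change 1.85), against 34.5% higher and 34.1% lower of all tested genes, and *Krt5* stayed at 0.02 or less in NaBu. The summed FPKM of the epithelium list was 72.3 and 76.3 in NaBu and 35.5 and 30.7 in controls. Its largest part was *Sfn*, with 29.6 and 31.0 in NaBu and 22.4 and 18.9 in controls. *Cdh1* made up 15.7 and 15.1 in NaBu and 7.65 and 6.23 in controls, and *Jup* 16.6 and 16.4 against 1.52 and 1.21. Among the genes called higher, *Krt8* and *Krt18* stood higher in NaBu 2 than in NaBu 1, *Krt18* with 0.98 in NaBu 1 and 2.79 in NaBu 2. The part of epithelial cells in the values of *Dsp* was not tested.

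Genes of actin and of small GTPase signalling numbered 10. *Asap3*, which acts on Arf GTPases, averaged 2.59 in NaBu, and *Myh10*, nonmuscle myosin IIB, had 2.65 and 2.46 in NaBu and 0.17 and 0.13 in controls. *Cdc42ep1* and *Cdc42ep2*, effectors of the polarity GTPase Cdc42, averaged 2.50 and 1.55 in NaBu. *Coro6* rested on 132 counts over the NaBu libraries and 1 over the controls, a ratio of 127 (interval 22.4 to 5057). That count lay in control 2, and its log2 fold change of 6.68 became 5.83 without control 1. The others were *Arhgef17* (mean 1.52), *Dock4* (1.47), *Tpm2* (1.44), *Myo1d* (1.17) and *Pls1* (1.11).

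Matrix and protease genes were led by *Mxra8* (chromosome 4, 155839680 to 155844102), a surface protein that serves as an alphavirus receptor, with 4.58 and 4.23 in NaBu and 0.15 and 0.15 in controls. *Adamtsl4*, a microfibril protein, averaged 2.75 in NaBu, and *Nid1*, the basement membrane protein nidogen, averaged 1.83. *Prtn3* (chromosome 10, 79879667 to 79883174), the neutrophil granule protease proteinase 3, had 2.25 and 1.88 in NaBu and 0 counts in both controls (at least 20.1-fold higher by the exact 95% interval, with a ratio of 25.4 at the floor of 3 counts). The neutrophil granule genes *Mpo* and *Ctsg* stayed low, with *Mpo* at 0.02 and 0 in NaBu and 0 and 0 in controls, and *Ctsg* at 0.10 and 0 in NaBu and 0.20 and 0.10 in controls. The serine protease gene *Prss57*, which overlaps *Fstl3* of the set, had 0.38 and 0.46 in NaBu and 0.19 and 0.19 in controls. By edgeR *Prss57* was called higher (log2 fold change 1.04), but reads from the stretch shared with *Fstl3* cannot be told apart. Of 12 analysed genes of the myeloid and dendritic list, 5 were near-silent in controls and all 5 were still under 0.2 in NaBu, while the summed FPKM of the list was 41.9 and 39.7 in NaBu and 17.9 and 16 in controls, most of it *Cd68* (28.4 and 27.1 in NaBu, 11.4 and 9.59 in controls). Of its 6 tested genes 4 were called higher and 1 lower (median log2 fold change 1.07), against 34.5% and 34.1% of all tested genes. Among the higher ones was *Itgam*, an integrin of myeloid cells, with 4.83 and 3.79 in NaBu and 0.45 and 0.45 in controls. *Mpeg1*, also higher, had 1.96 and 1.86 in NaBu and 0.20 and 0.39 in controls. The part of such cells in the value of *Prtn3* was not tested. *Slpi*, an inhibitor of leukocyte proteases, had 1.38 and 2.77 in NaBu and 0.06 and 0 in controls. The rest were *Spink2* (mean 2.23 in NaBu), *Mxra7* (2.08), *Mmp28* (1.55) and *Htra3* (1.07).

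Metabolic genes had the highest median of any role with more than 5 genes. *Chit1* (chromosome 1, 134111242 to 134151541), a chitin-degrading enzyme, had 4.38 and 4.06 in NaBu and 0.16 and 0.03 in controls. *Gchfr* (chromosome 2, 119167788 to 119172389), the feedback regulator of GTP cyclohydrolase in tetrahydrobiopterin synthesis, had 4.17 and 3.92 in NaBu and 0 and 0.08 in controls. *Azin2*, an antizyme inhibitor that sustains polyamine synthesis, had 3.41 and 3.43 in NaBu and 0.19 and 0.10 in controls. *Npl*, a sialic acid lyase, had 3.58 and 2.57 in NaBu and 0.07 and 0.10 in controls. *Aldh1a3*, an enzyme of retinoic acid synthesis, averaged 2.45 in NaBu. The ATP-hydrolysing surface enzyme gene *Entpd2* averaged 2.71, and *Cox4i2*, the lung form of cytochrome oxidase subunit 4, 2.90. *Cbr3* averaged 2.64, the glutathione transferase gene *Gsta4* 2.36 and *Asphd2* 1.47.

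Of 9 genes placed under transcription, a group without *Gli1*, *Tead3*, a DNA-binding partner of the Hippo coactivators, was the highest. It had 3.30 and 3.36 in NaBu and 0.06 and 0.06 in controls. *Mlxipl*, the glucose-responsive factor ChREBP of liver and fat, had 2.90 and 3.08 in NaBu and 0.07 and 0.05 in controls. The others were low, namely *Ell3* (mean 1.97), the neuronal factors *Pou4f1* (1.57) and *Lhx6* (1.25), the placental homeobox gene *Esx1* (1.52), *Hlf* (1.24), *Cited1* (1.21) and *Mafa*, an activator of the insulin gene (1.07). The RNA-binding genes *Rbpms*, *Rbpms2* and *Rbfox2* averaged 1.37, 1.10 and 1.08. None of the 14 genes of the REST corepressor complex or the 21 Polycomb genes analysed was near-silent in controls. Of the REST complex genes 6 were higher and 4 lower in NaBu by edgeR, with a median log2 fold change of -0.01 that spans large moves, such as *Rcor2*, a CoREST subunit, with 11.0 and 10.9 in NaBu and 1.64 and 1.23 in controls, and the deacetylase gene *Hdac1* with 245.9 and 229.0 in NaBu and 98.0 and 99.4 in controls. Of the Polycomb genes 8 were higher and 8 lower (median -0.10), against 4471 higher and 4413 lower of 12943 genes tested (median 0.00). *Rest* itself had an FPKM of 5.16 and 4.92 in NaBu and 5.5 and 5.1 in controls.

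Transport genes were *Slc9a2*, a sodium-hydrogen exchanger of epithelia (3.05 and 3.13 in NaBu, 0.14 and 0.12 in controls), *Slc16a5* of the monocarboxylate transporter family (2.73 and 2.75 in NaBu, 0.18 and 0.14 in controls), the aquaporin gene *Aqp11* (mean 1.66 in NaBu), the synaptic vesicle zinc transporter gene *Slc30a3* (1.12) and *Atp4a*, the gastric proton pump (1.11). Of the remaining protein-coding genes, *Ptrf*, also called *Cavin1* and needed to form caveolae, was the highest, with 4.10 and 3.47 in NaBu and 0.09 and 0.02 in controls. *Tom1l1*, *Cpne7*, *Pip5kl1*, *Plcd3*, *Tmem132a*, *Sgtb* and *Fam171b* averaged between 1.18 and 2.80 in NaBu.

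Many of these genes have a close relative that the cells already used. Of 23 families looked up after the genes were known, 15 held another gene at a mean FPKM of 10 or more in controls, and in 10 of those the switched-on gene was under 10% of that relative in NaBu. *Myh9*, nonmuscle myosin IIA, had 267.6 and 273.1 in NaBu and 349.2 and 335.8 in controls, and *Myh10* was 0.945% of it in NaBu. *Cox4i1* had 371.5 and 359.2 in NaBu and 272.7 and 247.4 in controls, beside which *Cox4i2* was at 0.794%. Within those 15 families the share was highest for *Mapk8ip1*, at 18.6% of *Mapk8ip3*. In 6 families no other analysed gene reached 1 in controls, and there *Dact3*, *Tead3*, *Gli1*, *Cadm4* and *Prtn3* were the highest analysed gene of the family in NaBu. In the remaining family, the mean NaBu FPKM of *Efna2* was above that of both ephrins of the set.

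**Figure D2:**
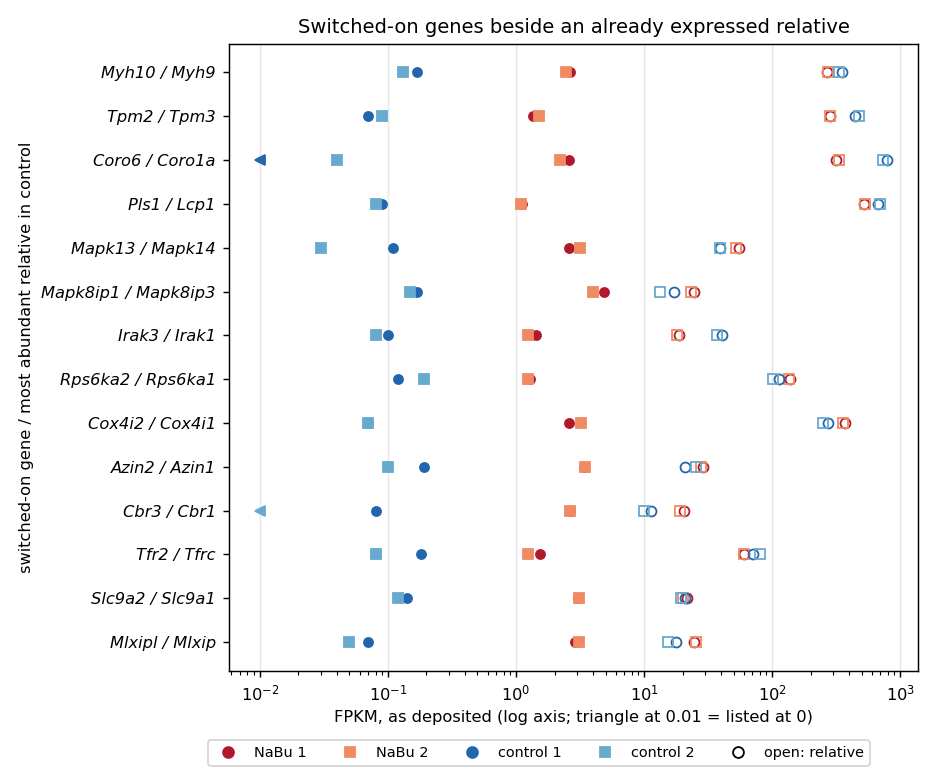
FPKM (log axis) of 14 switched-on genes (filled) and of the most abundant relative in controls (open), with circles and squares for the first and second library of each group and triangles for values listed at 0. The switched-on genes lie between 1.09 and 4.83 in NaBu, below relatives whose means ran from 18.3 to 525.7.

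Noncoding members were weak. *Miat*, a long noncoding RNA known from neurons, had 223 and 204 counts in NaBu and 10 and 5 in controls (27.4-fold, interval 16.4 to 49.4). The other 5, *Mir7086*, *Mir877*, *Rnu7*, *Snord71* and *Snord87*, are under 200 bases long and had at most 2 counts in any NaBu library and 0 in the controls, at which depth no difference was detectable. Their FPKM of 1 or more, 3.47 and 3.47 in NaBu for *Mir7086*, came from dividing 1 or 2 counts by a short length. *Mir7086*, *Mir877*, *Snord71* and *Snord87* lie within *Il10ra*, *Abcf1*, *Ap1g1* and *Snhg6*, which all had an FPKM above 19 in all 4 libraries. With at least 20 counts asked of each NaBu library, 103 genes were left, and the sixth gene lost was *Cited1*, with 21 and 19.

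**Figure D3:**
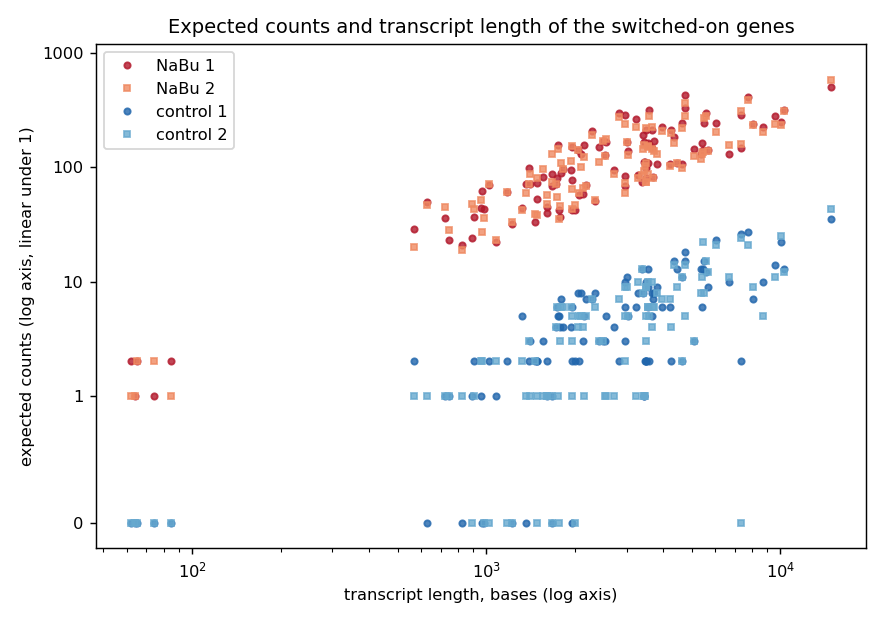
Expected counts (log axis, linear under 1) against transcript length in bases (log axis) of the 109 genes, with 1 point per gene and library. The 5 small RNAs sit at the left with at most 2 counts in NaBu, apart from the protein-coding genes, which had at least 19 in NaBu and at most 43 in controls.

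Counts set the precision of the rest. The median gene had 106 and 102 counts in the NaBu libraries and 4 and 4 in the controls. In controls 8 genes had 0 counts in both libraries and another 25 had 1 to 3 over both, so their fold changes have wide intervals. Of the 104 genes that edgeR tested, 31 had a fold change that moved by over 1.5 times, or were compared with controls at 0 counts, when 1 library was left out. Leaving out a control moved the fold change of 28 genes and leaving out a NaBu library that of 2, *Gsta4* and *Slpi*. Among the 101 genes with a control count the fold ran from 5.92 (*Fam171b*) to 155 (*Hap1*), with a median of 24.6. The NaBu libraries lay close together, with a median ratio of 1.11 between the higher and the lower, and 6 genes were over 1.5-fold apart, 3 of them with 20 or more counts in each. These 3 were *Gsta4* (3.28 and 1.43), *Slpi* (1.38 and 2.77) and *Spink2* (2.69 and 1.76). NaBu 1 was the higher library for 65 genes and NaBu 2 for 40. A few marker genes outside the set stood higher in NaBu 2 than in NaBu 1, such as *Alb* with 3.03 and 13.1 in NaBu and 1.99 and 2.91 in controls, and *Krt8* with 0.36 and 2.38 in NaBu and 0.22 and 0.49 in controls. The summed FPKM of a list of 15 analysed liver and kidney genes was 5.42 and 20.6 in NaBu and 4.29 and 5.71 in controls. None of the 8 of them that were near-silent in controls reached 1 in both NaBu libraries. The part of RNA from other cells in the values of the set was not tested.

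By edgeR's quasi-likelihood test on the counts, 104 of the 109 genes were tested and 104 were called higher in NaBu at a Benjamini-Hochberg adjusted p of 0.05, while 34.5% of all 12943 tested genes were called higher, 34.1% lower and 68.6% in either direction. The same libraries chose the genes, so this count says nothing further about them. The 5 small RNAs did not pass the filter on low counts.

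More genes were switched on than off. In the mirror set, with 1 or more in both controls and under 0.2 in both NaBu libraries, there were 9 genes with the same symbols left out. Of these, 7 were small RNAs at 0 in NaBu, and the other 2 were *Prdm11* (0.11 and 0.16 in NaBu, 1.37 and 1.36 in controls) and *Gucy2e* (0.19 and 0.15 in NaBu, 1.49 and 1.63 in controls). Counting protein-coding genes alone and leaving no symbol out, 114 genes near-silent in controls reached 1 in NaBu, against 2 near-silent in NaBu that reached 1 in controls. The mirror count turned on single libraries, ranging from 15 to 36 when 1 was left out.

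**Figure D4:**
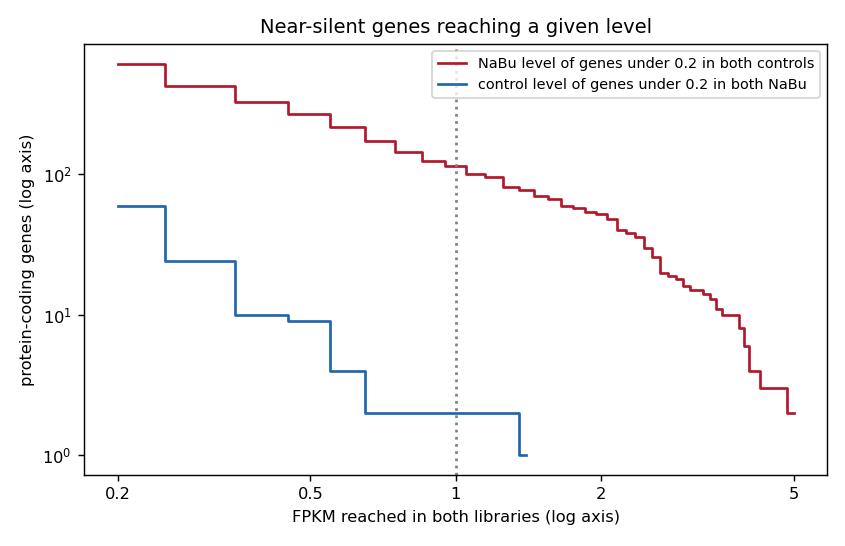
Number of protein-coding genes (log axis) that reached a given FPKM (log axis) in both NaBu libraries among those under 0.2 in both controls, and in both controls among those under 0.2 in both NaBu libraries. At the dotted line, an FPKM of 1, the curves stand at 114 and 2 genes.

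The limits cut through a continuous range. Just inside, *Wnk2* had 1.00 and 1.06 in NaBu, *Rbfox2* 1.00 and 1.16 and *Epb41l4b* 1.16 and 1.00, while *Fam171b* had 0.19 and 0.19, *Gipr* 0.19 and 0.16 and *Tom1l1* 0.19 and 0.12 in controls. Just outside in NaBu were *Tmod2* (0.99 and 1.13), *Adcy9* (1.17 and 0.96) and *Ankrd34a* (0.95 and 1.30). Just outside in controls was *Tmprss6*, with 5.16 and 4.76 in NaBu and 0.20 and 0.14 in controls. *Rtn2*, *Nfe2*, *Dok7* and *Dnajc28* also missed the control limit, each with 0.20 in 1 library.

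Base composition and surroundings were not used in the choice, and are given as a description with no test. The median transcript GC content of the 103 protein-coding genes was 55.8% (quartiles 51.6% and 58.7%), against 50.5% (46.0% and 54.9%) for 3004 protein-coding genes under 0.2 in all 4 libraries and 50.3% for 9882 at 1 or more in all 4. Of genes near-silent in controls, 0.716% of the quartile with the lowest GC content reached 1 in NaBu, 1.94% and 2.76% of the middle quartiles and 6.24% of the highest. Among genes at 1 or more in all 4 libraries, the median log2 fold change of NaBu over control also moved with GC content, at -0.14, -0.08, -0.08 and 0.00 over the same GC ranges, and the part of GC content in the libraries was not tested. Transcript length differed little, with a median of 2828 bases against 2682 for genes that stayed silent.

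**Figure D5:**
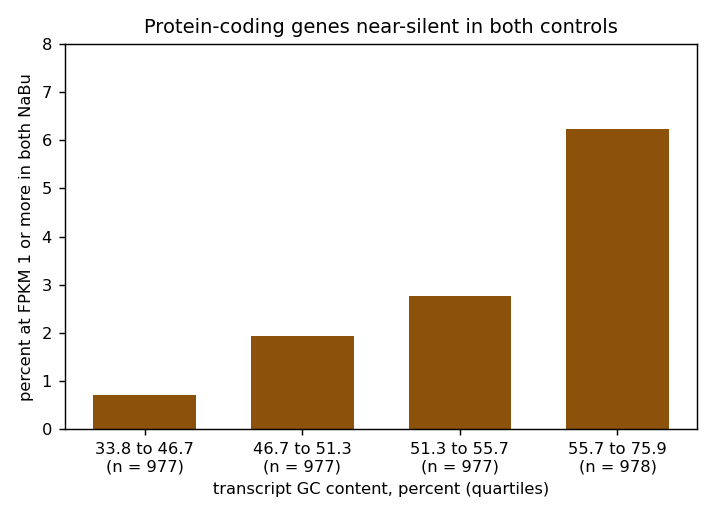
Percent of protein-coding genes near-silent in both controls that reached an FPKM of 1 in both NaBu libraries, by quartile of transcript GC content (n per quartile under each bar). The share was 0.716% in the lowest and 6.24% in the highest quartile.

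The median distance from the gene body to that of the nearest gene at 1 or more in both controls was 7627 bases for the 103 protein-coding genes, against 25836 bases for 3034 that stayed silent. Such a gene lay within 10000 bases of 58 of the 103 (56.3%), against 34.7% of those that stayed silent, and 4 (3.88%) had none within 100000 bases, against 26.6%. Genes in GC-rich regions also tend to lie close together, and the share of each feature was not tested apart. Overlap with an expressed gene was not more frequent, at 6 (5.83%) against 7.55%. Those 6 were *Tom1l1*, *Gli1*, *Plcd3*, *Cox4i2*, *Tpm2* and *Mmp28*. Overlaps with genes under 1 in controls were not counted. One of these is *Tmem132a* with *Slc15a3*, which had 1.89 and 1.39 in NaBu and 0.25 and 0.17 in controls. No source used here gives the strandedness of the libraries, so reads from the shared stretches of these genes cannot be told apart. Chromosome 11 held 16 of the 109 genes (14.7%), against 8.23% of all listed genes, and no other chromosome held more than 9.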

How the data were processed

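RNA-seq libraries of OT-I CD8+ T cells, 2 NaBu and 2 control, were grouped by sample title. The submitters' processing notes name Bowtie2, RSEM and the mm10 build; no source used here gives versions or strandedness. The deposited expected counts are not normalized; they were rounded to integers for the test. The authors' FPKM values, scaled to transcript length and mapped fragments, were used as deposited, and the series table equals the sample files (largest difference 0). Genes not listed for a library were set to 0.

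Counts were tested with edgeR 4.0.16 (R 4.3.3), TMM factors (1.035 and 1.0335 for NaBu, 0.968 and 0.9658 for control), filterByExpr and the quasi-likelihood test without covariates. The method was tested on simulated counts. Fold changes are ratios of summed counts over TMM-scaled library sizes with exact binomial 95% intervals; a group at 0 was set to a floor of 3 counts over the group. Over 13793 genes in NaBu and 13003 in control, replicates differed by more than counting noise (chi-square per degree of freedom 2.77 and 7.27). Over genes of the set the values were 1.50 in NaBu (104 genes) and 0.642 in control (49 genes). The choice of the set put limits on both libraries of each group. Replicates may be technical, and the p-values reflect just the spread between replicates. Coordinates, gene types and promoters are from RefSeq GRCm38.p6, and transcript GC content from GENCODE transcripts matched by RefSeq identifier. An FPKM limit of 1 or 0.2 depends on length, and RSEM divides reads shared between near-identical genes.

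The members and lists were chosen with earlier results of these data known; roles, tissues and families were assigned after the members were known. By a rule written with the lists, any member may be named, values in every library are given for the 20 with the highest mean NaBu FPKM and for those nearest the limits, and promoters are shown in order of NaBu FPKM. A few genes are not reported here. Other genes were named after their values were seen. Alternatives were other normalizations, no filter on low counts, DESeq2 1.42.0, limma 3.58.1 on log2(FPKM + 1) and log2(FPKM + 0.1), the replicate number as a block, leaving out each library, and other limits.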

Additional observations from a re-analysis of the deposited data

How the results depend on the processing

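The size of the set followed its limits. It held 53 genes with a control limit of 0.1, 275 with 0.5, 264 with a NaBu limit of 0.5 and 48 with 2. It held 104 with FPKM divided by the TMM factors, 144 on depth-scaled counts (CPM) with the same limits (43 of the 109 among them), and 131 to 147 without 1 library. The mirror set, of 9 genes, held 17 with a limit of 0.5 in NaBu, 24 with 0.5 in controls, 2 with 2 in controls, 1 on CPM, 2 with at least 20 counts in each control, and 15 to 36 without 1 library.

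The edgeR test called 8884 genes, and between 7099 and 8895 under the alternatives, with 104 or 109 of the set called higher. The 109 came from limma on FPKM under all of its settings, which also called the 5 small RNAs of 1 or 2 counts; edgeR without a filter on low counts called 104, and the cause was not tested. With the replicate number as a block, 8853 genes and 104 of the set were called; same-numbered libraries share only a number (correlation of their deviations -0.03). Without 1 library, the lone sample of a group is assumed to vary like the other group. For 28 named genes with a fold change, all 336 values under alternatives kept direction and call. The choice of the genes on these same libraries fixed the direction, so this count is no support for them. Promoter composition was not run under its alternatives, since 67.9% of genes had an entry. Depth limits the folds of 33 genes with 3 or fewer control counts, and says nothing on the 5 small RNAs.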
